A study of Zea mays with 9 samples.

Results

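The transcripts described here are the 200 that differed most between replicate root pools of the same treatment, of 39372 maize transcripts on the array. They were chosen by their measured values. The level of a transcript was the log2 intensity of its spot, from which the log2 of that array's 75th percentile was subtracted. A transcript was eligible if its spot was well above background on all 9 arrays and was not marked as non-uniform or as a population outlier on any of them, which left 20517 transcripts. Of these, the 200 with the largest pooled SD were kept, where the pooled SD is the square root of the mean of the 3 variances within the treatments. Every statement below on the spread between replicates, on the arrays that carried it or on profiles alike across arrays uses the same deviations that chose the members, and is given as a description with no test.

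Roots of maize seedlings (P0423 hybrid, 4 days old at the start) were treated for 3 days with a protein hydrolysate (Bio, SICIT2000 at 0.1 ml per litre), a mixture of free amino acids that mimicked the hydrolysate (Aa) or inorganic nitrogen (N, supplied as NH4H2PO4). All 3 solutions held 11.3 mg total N per litre in the same diluted nutrient solution. Each treatment had 3 one-colour arrays, and each array carried RNA pooled from the roots of 24 seedlings, so that differences between single plants are not visible. The growth experiment was run 3 times. The probes were designed on the B73 inbred, whereas the plants were a hybrid, so that a probe may read alleles or near-identical family members unequally.

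The 3 replicate numbers were 3 slides. Slide 1 held the arrays of replicate 1 of Bio, Aa and N, slide 2 those of replicate 2 and slide 3 those of replicate 3. A slide and, if the numbers also mark the repeated experiments, an experiment cannot be told apart. Within each slide N lay at position 1, Aa at position 2 and Bio at position 3, so that a treatment cannot be told apart from its position either. The 75th percentile was between 617.1 and 962.1 intensity units, and each array had 27019 to 32309 transcripts well above background. The 27019 were those of Bio replicate 1, which stood apart from the 29974 to 32309 of the other arrays. Its median level of the negative control spots was -6.89, against -8.61 to -7.89 on the others. Of 5 root marker transcripts, ys1, rth3 and a pair of Casparian strip membrane proteins passed the background test on all arrays and rtcs1 on 8. This does not test the labelled tissue, since 21 of 39 photosynthesis and 9 of 36 kernel transcripts also passed on all arrays.

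Roots are a mixture of cell types and ages, from the dividing tip to the mature zone with root hairs and lateral roots, and the genes at work differ between them. Grasses take up iron by secreting phytosiderophores, which are built from nicotianamine and carry Fe(III) back into the root. Nitrate enters through low and high affinity transporters, is reduced to ammonium and is assimilated by glutamine synthetase. Benzoxazinoids, flavonoids, glutathione S-transferases, cytochromes P450 and peroxidases belong to defence, detoxification and cell wall chemistry. Many genes of these kinds are known to respond to nutrient supply, light or stress. In RNA from whole roots, fewer cells of a type and less RNA per cell cannot be told apart.

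The pooled SD of the members was between 1.19 and 3.52 on the log2 scale, with a median of 1.36, against a median of 0.29 over all eligible transcripts. The treatment in which a member varied most spread its 3 arrays over 5.71-fold to 398-fold, with a median of 9.98-fold. Just inside the limit stood GRMZM5G824333_T01, GRMZM2G362823_T01 and GRMZM2G120079_T01 with pooled SDs of 1.199, 1.196 and 1.193. Just outside it stood GRMZM2G444819_T01, GRMZM2G399136_T01 and GRMZM2G316030_T01 with 1.193, 1.192 and 1.192, so that no gap separates the 200 from the rest. Without Bio replicate 3, GRMZM5G824333_T01 and GRMZM2G362823_T01 had pooled SDs of 0.74 and 0.75. Members were dimmer than other transcripts, with a median level of -2.24 against -1.6 over all eligible transcripts, although they ran up to 4.67. The error that the scanner software gave for a spot was 10.2% of the signal in the members and 10.1% over all eligible transcripts (medians). The 7 control probes for RNA spiked into the labelling that were well above background on all arrays had pooled SDs between 0.19 and 0.24. Their level was the median over all spots of the probe on an array, whereas a transcript had 1 spot. The 2 kinds of SD are thus not directly comparable.

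**Figure D1:**
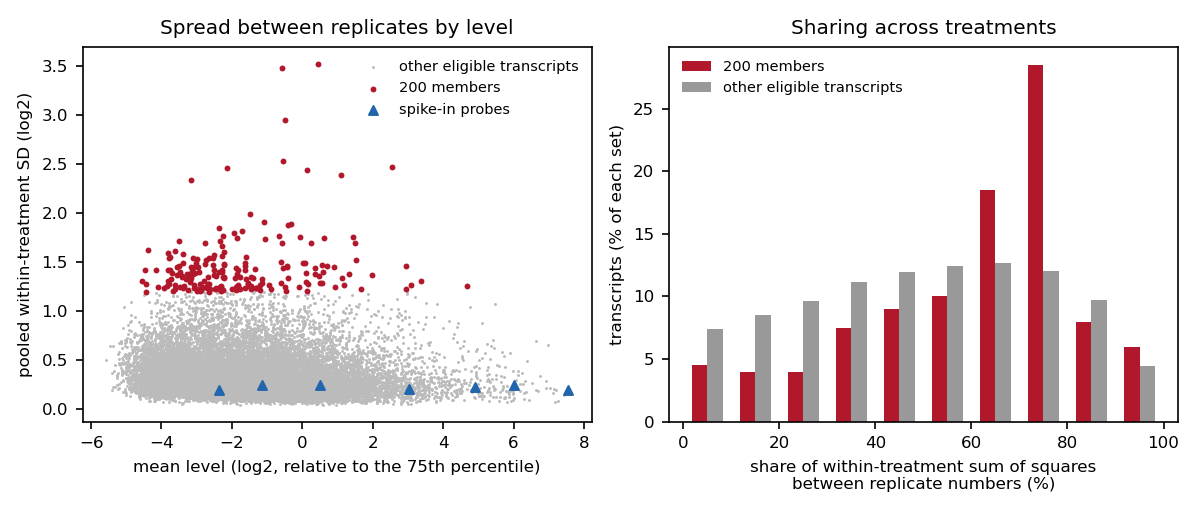
Left, pooled within-treatment SD (log2) against the mean level over 9 arrays (log2, relative to the 75th percentile). Shown are the 200 members (red), the other eligible transcripts (grey) and 7 spike-in probes (blue triangles). Members start at 1.19, and the spike-in probes lie between 0.19 and 0.24. A spike-in level is the median over all spots of the probe on an array, and a transcript level is that of a single spot. Right, percent of each set of transcripts by the share of the within-treatment sum of squares that lay between replicate numbers, with a median of 67.3% in the members and 51.2% over all eligible transcripts.

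Much of the spread was common to the 3 treatments of a replicate number. The share of the within-treatment sum of squares that lay between the 3 replicate numbers, which hold 2 of its 6 degrees of freedom, had a median of 67.3% in the members. It was 63.9% in the next 200 transcripts by pooled SD and 51.2% over all eligible transcripts. In 125 members, all 3 arrays of some replicate number deviated from their treatment means the same way by at least 0.5. The same was found in 85 of the next 200 and in 2.82% of eligible transcripts. A fixed limit of 0.5 is passed more easily by transcripts of large spread, for which the members were chosen. The commonest direction was higher on replicate 3, in 79 members against 49 of the next 200 and 1.38% of eligible transcripts. It was also the commonest over all eligible transcripts (283 of the 579 that moved together). Replicate 3 was lower in 11 members (eligible 0.37%). Replicate 1 was lower in 29 (eligible 0.312%) and higher in 3 (eligible 0.19%), and replicate 2 was higher in 20 (eligible 0.322%) and lower in 16 (eligible 0.604%). With a deviation of at least 1 on each of the 3 arrays, 35 members remained, against 5 of the next 200 and 0.205% of eligible transcripts. Of these 35 members, 14 were higher on replicate 3 and 10 lower on replicate 1. With another background correction (normexp, on the spots' uncorrected signals) the median share in the members was 43.8%, against 33.2% over all eligible transcripts. The degrees of freedom alone, without a shared pattern, give 33.3%. The count of 125 became 51 after normexp.

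The spread was not even over treatments or arrays. The largest of the 3 variances was that of Bio in 86 members, of Aa in 77 and of N in 37. Over all eligible transcripts it was that of Bio in 52.5%, of Aa in 24.8% and of N in 22.6%, so that the members held a larger share from Aa and a smaller one from Bio. The array farthest from its treatment mean was Aa replicate 3 in 24.0% of members, against 7.79% of eligible transcripts. It was Bio replicate 2 in 21.5% against 18.7%, Bio replicate 3 in 9.5% against 18.4%, and Bio replicate 1 in 9.0% against 15.2%, so that the Bio arrays were near or below their shares over all eligible transcripts. The other 5 arrays were each farthest in 3.5% to 11.5% of members. In 57 members, leaving out 1 array lowered the pooled SD by more than 1.5 times. That array was most often Bio replicate 2 (15 members), N replicate 2 (11), Bio replicate 3 (10) or N replicate 1 (9). The share over all eligible transcripts is not given here, so that these counts cannot be read as particular to the members.

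When the members were grouped by the correlation of their deviations over the 9 arrays (average linkage, mean correlation of at least 0.7), 10 groups of 5 or more members took in 172 of the 200. The largest held 69 members, and the others 19, 17, 15, 12, 11, 11, 8, 5 and 5. Of 19900 pairs of members, 319 had levels that correlated at 0.98 or more over the 9 arrays. Members were spread over the array surface, with those of the largest group between rows 2 and 532 of 532 and columns 1 and 85 of 85. Groups 1 to 10 below are numbered by size.

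**Figure D2:**
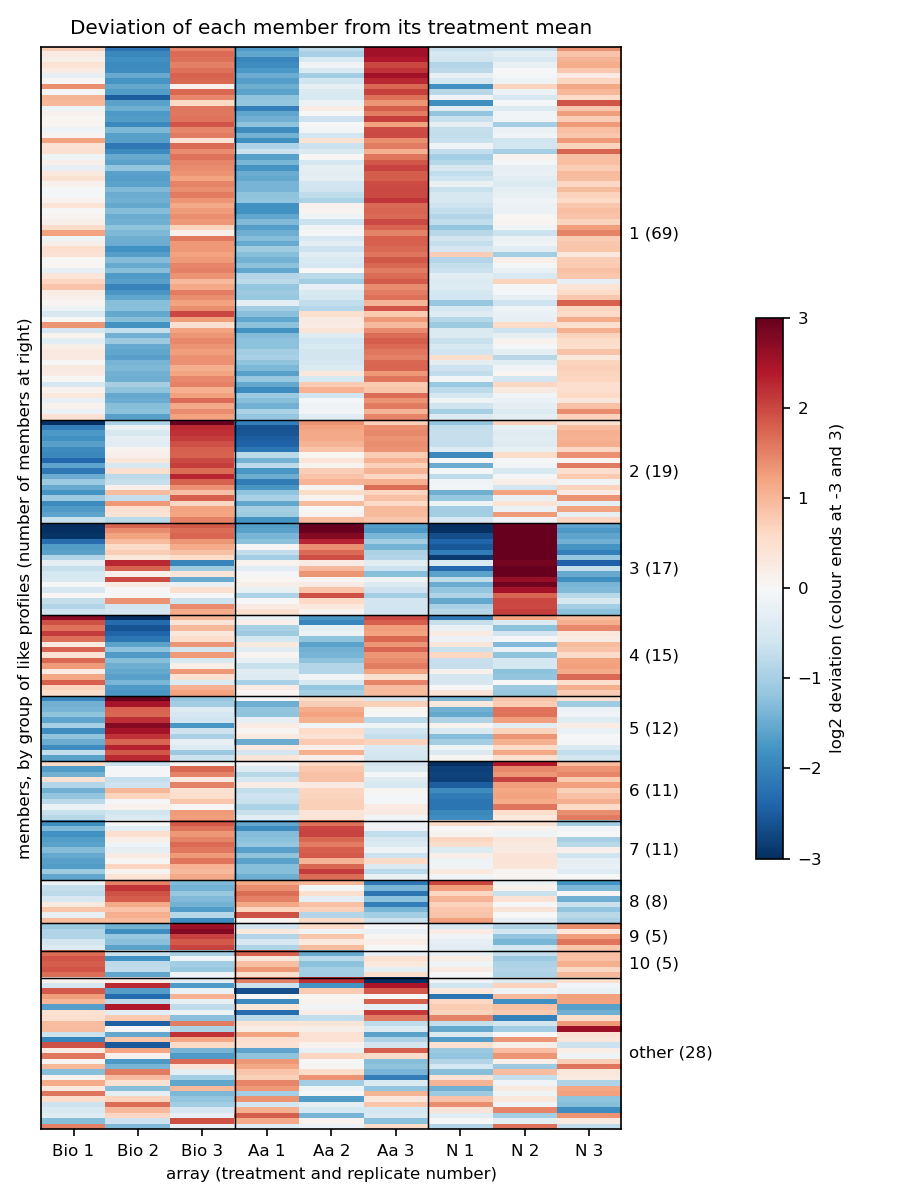
Each row is 1 of the 200 members and each column 1 array, with Bio, Aa and N from left to right; colour gives the deviation of the member from the mean of its treatment (log2, blue lower, red higher, ending at -3 and 3). The 10 groups are set off by lines with their number of members at right, the 69 members of group 1 being red on replicate 3 of all 3 treatments and blue on Bio replicate 2 and Aa replicate 1, and the 17 members of group 3 red on N replicate 2.

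Group 1, the 69 dim transcripts, shared one profile. Their median level was -2.91. The group's median level in Bio was -2.23, -3.98 and -0.99 in replicates 1, 2 and 3. In Aa it was -4.13, -3.19 and -1.13, and in N it was -4.06, -3.85 and -2.77. Replicate 3 was thus the brightest array of each treatment, above the treatment mean in all 69 members for Bio, in 69 for Aa and in 68 for N, while Bio replicate 2 was the lowest Bio array in 69 and Aa replicate 1 the lowest Aa array in 67. The median correlation between members was 0.93. The profile was not the members' alone, since 600 of the 20517 eligible transcripts, members included, correlated with the group's median profile at more than 0.9. It depended on the background correction: after normexp the median deviation of N replicate 1 was 1.52 in place of -0.61, that of N replicate 3 was -0.40 in place of 0.81, and only 2 of the 69 were among the 200 of largest pooled SD.

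Few members of group 1 can be named. The gene identifiers of 24 of the 69 were found in the RefSeq gene table, none with a gene symbol, and the study's annotation described only GRMZM2G013956_T01, a putative cytochrome P450. Its levels were -2.38, -4.94 and -1.10 in Bio, -2.23, -1.96 and 0.24 in Aa and -3.55, -3.99 and -2.78 in N. The widest member was GRMZM2G393988_T01, which has no description in the sources used here. It had -0.63, -3.58 and 0.12 in Bio, -4.12, -3.24 and 0.09 in Aa and -4.0, -3.99 and -1.94 in N. AC195914.2_FGT002 and GRMZM2G448918_T01 followed it, with pooled SDs of 1.71 and 1.71.

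Group 3, with 17 members, held 8 of the 10 transcripts of largest pooled SD, and all 17 were highest in N on replicate 2. Its first was GRMZM2G000435_T01 (pooled SD 3.52), an uncharacterised transcript here. Its level was -3.03, 2.30 and 2.41 in Bio, -1.69, 3.30 and -1.67 in Aa and -2.59, 5.75 and -0.78 in N. The N arrays thus covered a 324-fold range, and N replicate 2 lay above every Bio and Aa array, while the other N arrays lay within the range of the Bio arrays. AC210046.4_FGT002 (pooled SD 3.48) had -3.40, 1.12 and 1.36 in Bio, -2.85, 2.05 and -2.97 in Aa and -3.67, 4.96 and -1.92 in N, a 398-fold range in N. GRMZM2G131508_T01 (2.95) and AC199771.4_FGT001 (2.53) went with them: the levels of these 2 correlated with those of GRMZM2G000435_T01 over 9 arrays at 0.997 and 0.994. Without N replicate 2 the pooled SD of AC199771.4_FGT001 was 1.66. AC166636.1_FGT007, GRMZM2G082365_T01 and GRMZM2G342401_T01 had pooled SDs of 2.46, 2.39 and 2.33, which were 1.21, 1.17 and 1.27 without N replicate 2.

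Over group 3 the median deviation of N replicate 2 was 3.07, against -1.6 and -1.44 for N replicates 1 and 3. In Aa it was 1.33 for replicate 2, against -0.23 and -0.87, so that replicate 2 was above its treatment mean in all 17 members for Aa and N and in 14 for Bio. The named members of the group were dhar1, a dehydroascorbate reductase that recycles ascorbate, and gst7, a glutathione S-transferase. dhar1 (GRMZM5G855672_T01, pooled SD 1.99) had -1.69, 0.86 and -3.38 in Bio, -2.08, -1.93 and -2.55 in Aa and -1.31, 2.03 and -3.28 in N. gst7 (GRMZM2G028556_T01, pooled SD 1.29) had -1.10, 0.95 and -1.03 in Bio, -0.23, 0.38 and -0.79 in Aa and -0.62, 2.91 and 0.44 in N. Both were highest on replicate 2 in each treatment.

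Group 2, with 19 members, was low on replicate 1 and high on replicate 3, in N only without normexp: after it the median deviations in N were 0.48, -0.64 and 0.07, in place of -0.72, -0.11 and 0.66. Bio replicate 1 was the lowest Bio array in 18 members and Aa replicate 1 the lowest Aa array in 19, and Bio replicate 3 was the highest Bio array in 17. Median levels were -2.65, -1.22 and 1.05 in Bio, -1.43, 1.06 and 1.49 in Aa and -2.16, -1.45 and -0.77 in N. The group was brighter than most members, with a median level of -0.58. Its widest member was GRMZM2G138450_T01 (pooled SD 2.47), annotated as a peroxidase, an enzyme class that acts on the cell wall and on lignin. Its levels were -2.21, 0.00 and 5.06 in Bio, 3.43, 6.83 and 6.20 in Aa and 0.05, 1.92 and 1.72 in N. The Bio arrays spanned 155-fold, from below every N array to above every N array, and without Bio replicate 3 the pooled SD was 1.5.

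Group 2 also held members of nitrogen uptake and assimilation. nrt2.2 (GRMZM2G010251_T01, pooled SD 1.44), a high affinity nitrate transporter, had -0.82, -0.12 and 2.94 in Bio, 0.36, 2.67 and 2.43 in Aa and -2.16, -1.45 and -0.61 in N. Replicate 1 was the lowest array of each treatment, and without Bio replicate 3 the pooled SD was 0.90. GRMZM2G010372_T01, singled out after its values were seen and with no description here, lies 2 places from nrt2.2 in the gene order of the RefSeq table and was a member of group 1, and its levels correlated with those of nrt2.2 at 0.92. gln3 (GRMZM2G046601_T01, pooled SD 1.27), a glutamine synthetase, which joins ammonium to glutamate, had -3.44, -0.23 and -0.91 in Bio, -2.39, 0.11 and -0.24 in Aa and -0.62, -0.08 and -0.80 in N. It was low on replicate 1 of Bio and Aa and nearly even in N. GRMZM2G450546_T01 and GRMZM2G374248_T01, both undescribed, had pooled SDs of 1.87 and 1.81.

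**Figure D3:**
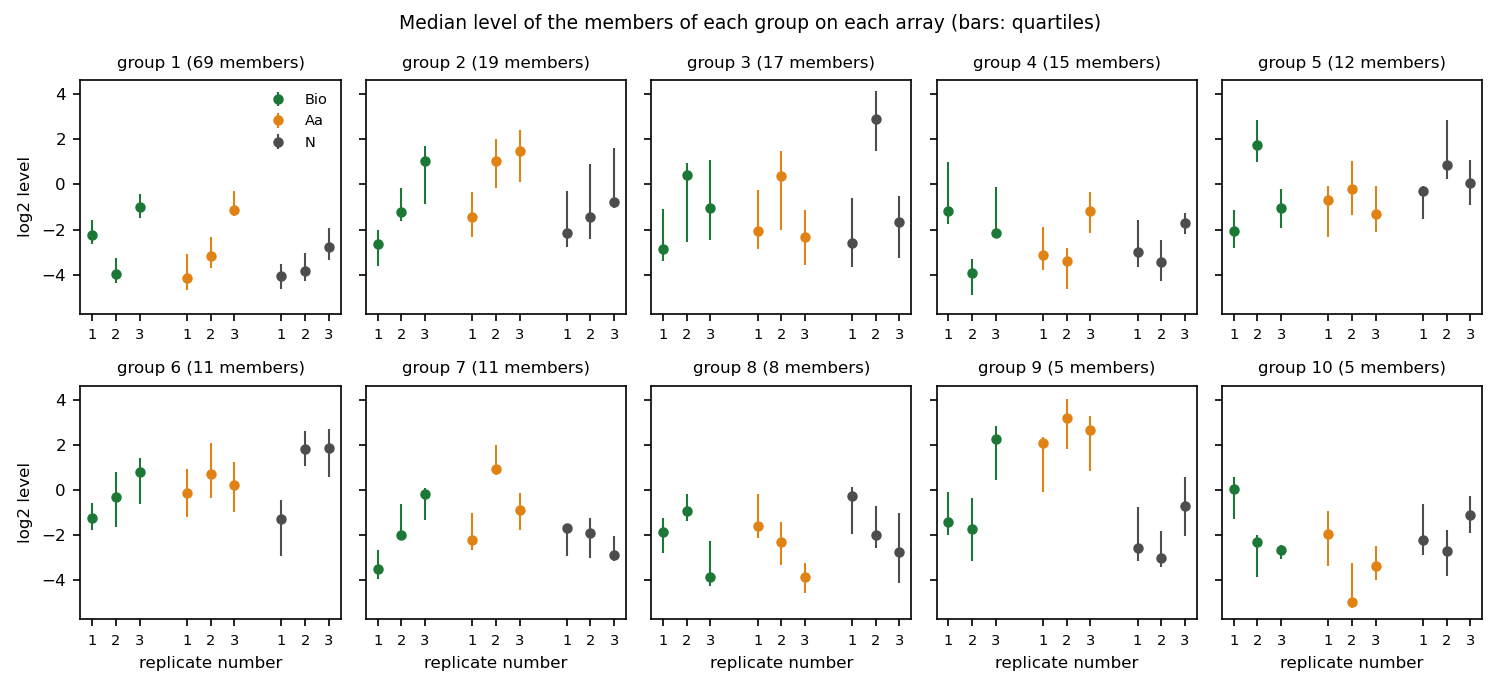
Median level (log2, relative to the 75th percentile of the array) of the members of each of the 10 groups on each array, with the quartiles as bars, for Bio (green), Aa (orange) and N (grey) and replicates 1 to 3 within each. Group 1 is at -0.99, -1.13 and -2.77 on replicate 3 of Bio, Aa and N, and group 3 is at 2.91 on N replicate 2.

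Group 9 held the 3 members of iron acquisition, EREB139 and 1 uncharacterised transcript, all 5 of them highest on replicate 3 in Bio and N. After normexp this held for the median deviation in Bio (1.87 on replicate 3), whereas in N replicate 1 was the highest at 0.78, in place of -0.25, and replicate 3 was at 0.61. YS3, also called ZmTOM1 (GRMZM2G063306_T01, pooled SD 1.49), which exports phytosiderophores, had -1.41, -1.71 and 2.25 in Bio, 2.08, 3.19 and 2.65 in Aa and -2.58, -3.0 and -0.71 in N. Its Aa arrays lay within 2.1-fold of each other, whereas its Bio arrays spanned 15.6-fold, with replicate 3 near the Aa arrays and replicates 1 and 2 near the N arrays. The nicotianamine synthase that the study annotates as ZmNAS2 (GRMZM2G124785_T01, pooled SD 1.33) had -0.09, -0.34 and 2.85 in Bio, 2.35, 4.06 and 3.28 in Aa and -0.76, -1.83 and 0.57 in N. The one annotated as ZmNAS1 (AC233955.1_FGT003, pooled SD 1.30) had 2.82, 2.12 and 5.22 in Bio, 4.84, 5.63 and 5.55 in Aa and 1.11, -0.01 and 2.97 in N. The levels of YS3/ZmTOM1 and ZmNAS2 correlated at 0.991 over the 9 arrays. Nicotianamine synthases form a family of closely similar copies, so that the assignment of these values to single copies is uncertain.

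For some of these genes the spread rested on 1 array. Without Bio replicate 3 the pooled SDs were 0.78 for YS3/ZmTOM1 and 0.86 for ZmNAS2. The iron-phytosiderophore importer ys1 (GRMZM2G156599_T01), which is not among the members, had 2.49, 2.53 and 4.46 in Bio, 4.54, 5.80 and 4.95 in Aa and 2.35, 1.53 and 2.09 in N, so that Bio replicate 3 was also its highest Bio array. EREB139 (GRMZM2G103085_T01, pooled SD 1.45), a transcription factor of the AP2/EREBP family, was in the same group with -3.96, -4.93 and -0.31 in Bio, -2.29, -2.74 and -2.80 in Aa and -3.33, -4.15 and -3.25 in N. Without Bio replicate 3 its pooled SD was 0.51. Of 12 eligible transcripts on the list for iron and metal uptake, 3 were members, against 0.975% of all eligible transcripts. The list rests in part on descriptions at hand only for transcripts that the study listed as changed, so that the 2 shares are not alike. The median pooled SD of its eligible transcripts was 0.69, against 0.29 over all.

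Group 4, with 15 members, was lowest in Bio on replicate 2 in all 15 and highest in Aa on replicate 3 in all 15. Its widest member was a2 (GRMZM2G345717_T01, pooled SD 2.43), the anthocyanidin synthase of the anthocyanin pathway. It had 2.26, -4.10 and 0.56 in Bio, -1.07, -2.60 and 1.12 in Aa and -0.44, 2.88 and 2.64 in N, an 82.2-fold range in Bio. bx2 (GRMZM2G085661_T01, pooled SD 1.36), a cytochrome P450 early in benzoxazinoid synthesis, had 4.19, 1.25 and 1.90 in Bio, 0.30, -0.81 and 2.36 in Aa and 2.2, 2.68 and 3.71 in N. BURP4 (GRMZM5G800586_T01, pooled SD 1.23), a BURP domain protein, had -0.07, -3.23 and -2.28 in Bio, -3.60, -3.10 and -1.16 in Aa and -3.14, -2.64 and -2.11 in N. Both were lowest in Bio on replicate 2 and highest in Aa on replicate 3, as were the undescribed GRMZM2G001035_T01 and GRMZM2G172586_T01, with pooled SDs of 1.74 and 1.66. Without Bio replicate 2 that of GRMZM2G172586_T01 was 1.05.

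Group 5, with 12 members, was highest in Bio on replicate 2 in all 12 and highest in N on replicate 2 in 11. CYP81A1 (GRMZM2G087875_T01, pooled SD 1.37), a cytochrome P450, had 0.19, 3.56 and 0.42 in Bio, 0.64, 0.78 and -0.36 in Aa and 0.95, 3.59 and 2.25 in N. A chloroplastic quinone-oxidoreductase (GRMZM2G013781_T01, pooled SD 1.22) had -2.79, 1.05 and -1.84 in Bio, -0.91, -1.16 and -1.84 in Aa and -0.08, 0.34 and -0.68 in N. Without Bio replicate 2 these pooled SDs were 0.85 and 0.56. The widest members of the group, GRMZM2G021310_T01, GRMZM2G121878_T01 and GRMZM2G135722_T01, had pooled SDs of 1.75, 1.54 and 1.45. Without Bio replicate 2 those of the first 2 were 0.81 and 0.93.

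Detoxification genes were thus spread over groups 1, 3 and 5 rather than sharing 1 profile. Of the 40 eligible transcripts on that list, 5 were members. In Bio, dhar1, gst7, CYP81A1 and the quinone-oxidoreductase were highest on replicate 2, and the putative P450 was lowest there. Opposite directions are not a common profile, and 1 of 3 arrays is often the highest or the lowest. Bio replicate 2 was the array farthest from its treatment mean in 21.5% of members and 18.7% of eligible transcripts. Markers of kernel tissue (zeins, oleosins, globulins and late embryogenesis abundant proteins) had no member among 9 eligible ones. Their summed intensity, relative to the 75th percentile, was 10.9, 91.3 and 19.7 in Bio, 14.5, 20.7 and 27.9 in Aa and 53.7, 56.7 and 35.8 in N over 36 transcripts, of which 9 passed the background test on every array and 9 on no array. It was highest on Bio replicate 2, and its part in the results was not tested.

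Group 6, with 11 members, was lowest in N on replicate 1 in all 11. GRMZM2G069146_T01 had -1.22, -2.47 and -1.71 in Bio, -2.55, -1.88 and -3.09 in Aa and -4.90, 0.85 and -0.61 in N, and without N replicate 1 its pooled SD was 0.78 in place of 1.8. GRMZM2G387341_T01 and GRMZM2G075459_T01 had pooled SDs of 1.75 and 1.70, which were 1.06 and 0.98 without N replicate 1. None of the 11 had a symbol or a description.

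Group 7, also with 11 members, varied little in N. All 11 were highest in Bio on replicate 3, lowest there on replicate 1, highest in Aa on replicate 2 and lowest there on replicate 1, while the median SD in N was 0.36. The median SDs in Bio and Aa were 1.49 and 1.59. The small spread in N was lost after normexp, where the median deviations in N were 1.25, -0.41 and -0.67, in place of 0.12, 0.30 and -0.27. It held a cellulose synthase-like protein D1 (GRMZM2G436299_T01, pooled SD 1.22), from a family known for wall synthesis in root hairs. This transcript had -4.10, -2.13 and -1.40 in Bio, -2.75, 0.38 and -1.5 in Aa and -2.99, -2.86 and -2.90 in N. GRMZM2G073260_T01, GRMZM2G035506_T01 and GRMZM2G312221_T01 were wider, with pooled SDs of 1.49, 1.41 and 1.39. No identifier of group 7 was found in the RefSeq gene table.

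Group 8, with 8 members, ran the other way from group 1, since replicate 3 was the lowest array of Bio in all 8, of Aa in all 8 and of N in 7. MYBR58 (GRMZM2G170322_T01, pooled SD 1.25), a MYB-related transcription factor, had -2.06, -2.04 and -4.58 in Bio, -1.86, -1.79 and -3.89 in Aa and -1.99, -2.41 and -3.99 in N. Replicate 3 was lower than the other arrays by about the same amount in every treatment, and 97.2% of the sum of squares lay between replicate numbers. pht1-6 (GRMZM5G881088_T01, pooled SD 1.53), a phosphate transporter, had -3.77, -1.07 and -4.13 in Bio, -1.90, -3.08 and -5.73 in Aa and -0.46, -1.75 and -1.05 in N. GRMZM2G029850_T01 and GRMZM5G836353_T01, both undescribed, had pooled SDs of 1.74 and 1.54.

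Group 10 held 5 undescribed members, led by GRMZM2G164340_T01, GRMZM2G124890_T01 and GRMZM2G101393_T01 with pooled SDs of 1.36, 1.29 and 1.25. All 5 were highest in Bio on replicate 1 and in N on replicate 3 and lowest in Aa on replicate 2. After normexp the median deviation in N was highest on replicate 1 (1.1) and 0.10 on replicate 3, and 1 of the 5 was found again among the 200 of largest pooled SD. The other 28 members fell into groups of at most 4, and 6 of them stood alone.

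In 12 members more than 90% of the sum of squares lay between replicate numbers, as in 4.45% of eligible transcripts. Besides MYBR58 the most even were chosen here after their values were seen. GRMZM2G147774_T01 (98.7%) had -3.22, -5.11 and -2.17 in Bio, -3.24, -5.15 and -2.21 in Aa and -3.02, -4.70 and -2.42 in N, the same order and nearly the same values in the 3 treatments. GRMZM2G135722_T01 and GRMZM2G061289_T01 (97.1% and 97.0%) were both highest on replicate 2 and lowest on replicate 1 in every treatment. They lie 2 places apart in the gene order of the RefSeq table, and their levels correlated at 0.992.

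The opposite case, with under 10% between replicate numbers, was found in 9 members, as in 7.41% of eligible transcripts. It included lhcb6 (GRMZM2G092427_T01, pooled SD 1.24), the minor antenna protein CP24 of photosystem II, with 4.3%. Its levels were 4.03, 2.17 and 1.08 in Bio, -1.11, -0.11 and 0.91 in Aa and -0.63, 0.34 and 1.69 in N, so that replicate 1 was the highest Bio array and the lowest Aa and N array. The transcript most like lhcb6 over the 9 arrays was AC208915.3_FGT010, annotated as chlorophyll a-b binding protein 2, with a correlation of 0.985.

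Genes of photosynthesis are markers of green tissue, and 2 of their 12 eligible transcripts were members. Besides lhcb6 this was rbcS (GRMZM2G113033_T01, pooled SD 1.38), the small subunit of Rubisco, with 29.2% between replicate numbers. It had -1.62, -0.66 and -3.23 in Bio, -5.96, -4.64 and -2.57 in Aa and -4.45, -2.40 and -3.12 in N. Over the 37 transcripts of that list that are not members, the summed intensity relative to the 75th percentile was 315.9, 192.9 and 121.0 in Bio, 106.0, 111.9 and 119.2 in Aa and 110.5, 111.0 and 122.2 in N. Of these 37 transcripts, 19 passed the background test on every array and 1 on no array. The sums lean on the brightest, cp29 (GRMZM2G033885_T01), with 6.90, 6.46 and 5.79 in Bio, 6.12, 5.91 and 5.92 in Aa and 6.16, 5.85 and 5.99 in N. Not all transcripts of the list went with the sum: pep7 and psat1 were lower on Bio replicates 1 and 2 than on every Aa and N array. The list was drawn by patterns in symbols and descriptions, so that these 2 need not be markers of green tissue. The sum was highest on Bio replicates 1 and 2, which were also the highest Bio arrays of lhcb6 and rbcS, and its part in their spread was not tested.

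**Figure D4:**
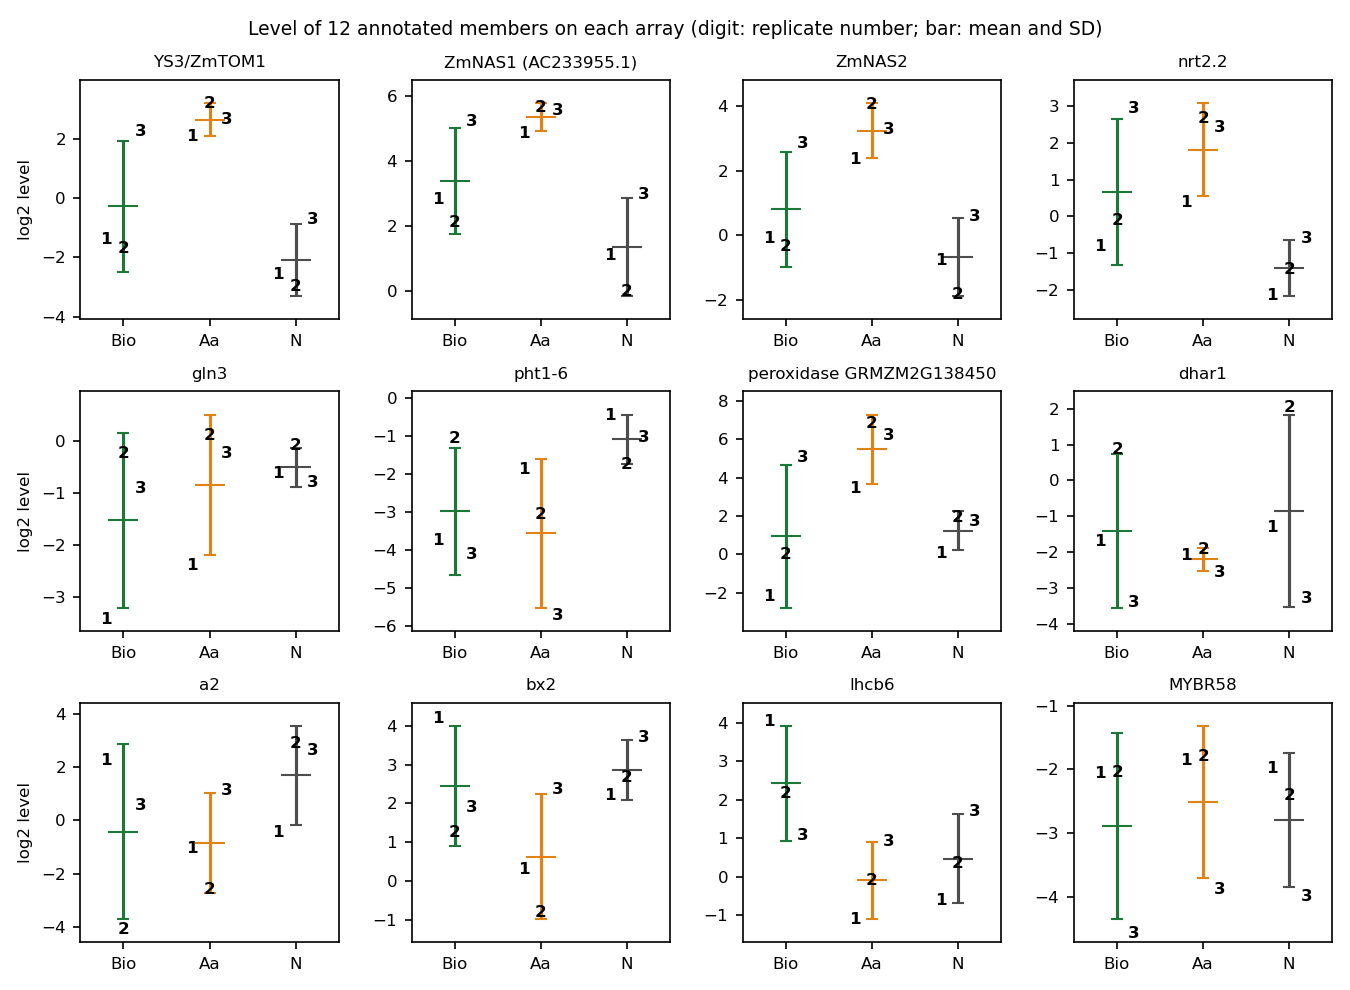
Level (log2, relative to the 75th percentile) of 12 annotated members in Bio, Aa and N, each panel with its own axis; digits are the replicate numbers and the bar is the mean with its SD (n = 3 arrays). YS3/ZmTOM1 and both ZmNAS transcripts have Bio replicate 3 near the Aa arrays, MYBR58 has replicate 3 lowest in all 3 treatments, and lhcb6 has replicate 1 highest in Bio and lowest in Aa and N.

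Transcription factors among the members followed no common profile. EREB36 (GRMZM2G069082_T01, pooled SD 1.6) had -0.56, -4.13 and -0.76 in Bio, -3.01, -2.96 and -3.06 in Aa and -4.08, -0.90 and -0.66 in N, with the Aa arrays within 1.07-fold of each other. bHLH108 (GRMZM2G119823_T01, pooled SD 1.45) was low on Bio replicate 2, with 1.22, -2.16 and 1.84 in Bio, 0.50, 0.47 and -0.67 in Aa and -2.45, -2.30 and -0.47 in N. Without that array its pooled SD was 0.78. bHLH76 (GRMZM2G112629_T01, 1.33) and MYBR45 (GRMZM2G415077_T01, 1.42) were highest in Bio and lowest in Aa on replicate 3. Without Bio replicate 3, that of MYBR45 was 0.94. Of the eligible transcripts with such symbols, members were 2 of 13 EREB, 2 of 25 bHLH and 2 of 12 MYB-related factors, against 0 of 25 MYB, 0 of 18 NAC, 0 of 16 bZIP, 0 of 15 WRKY and 0 of 7 homeobox factors.

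EL5 (GRMZM2G460958_T01, pooled SD 1.27), an E3 ubiquitin ligase known from rice roots, had -3.92, -1.08 and -2.91 in Bio, -2.92, -3.21 and -5.14 in Aa and -2.83, -0.63 and -1.21 in N. LOL3 (GRMZM2G120079_T01), a zinc finger protein and the last member by rank, had -2.15, -4.98 and -3.87 in Bio, -5.07, -4.86 and -4.12 in Aa and -5.82, -3.31 and -5.68 in N. Only 0.88% of its sum of squares lay between replicate numbers.

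Most members had no known function in the sources used here. The gene identifiers of 83 (41.5%) were found in the RefSeq gene table, against 49.9% of eligible transcripts, and 26 members had a gene symbol or a description other than uncharacterised. The remaining lists gave 1 member of 14 eligible peroxidases, 1 of 5 phosphate genes, 2 of 12 nitrogen genes, 2 of 25 benzoxazinoid, terpene and flavonoid genes and 1 of 24 cell wall genes. There were 0 members of 21 heat shock, 9 aquaporin, 8 clock and light, 5 hypoxia, 13 defence, 17 hormone, 3 chromatin and cell division and 1 ribosomal protein transcripts, and no mobile element was eligible. The 2 eligible root markers were not members either. Descriptions were at hand only for transcripts that the study listed as changed between treatments on these arrays, so that the lists are not independent of them.

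Differences between treatments were not used to choose the members. A limma fit of all 9 arrays called 0 members in each of the 3 comparisons (Bio vs. N, Bio vs. Aa and Aa vs. N) at an adjusted p of at most 0.01 with a 2-fold change. It also called 0 of all transcripts tested (0%), 38553 of them in Bio vs. N, 38453 in Aa vs. N and 38619 in Bio vs. Aa. The smallest adjusted p of a member was 0.683 in Bio vs. N, 0.396 in Aa vs. N and 0.79 in Bio vs. Aa. By design the members have wide errors: the median standard error of their log2 fold changes was 0.94, against 0.31 over all transcripts. At an unadjusted p below 0.05 there were 5 members in Bio vs. N against 7.05% of all transcripts tested, 27 in Aa vs. N against 7.35% and 6 in Bio vs. Aa against 4.91%. The Bio vs. N and Bio vs. Aa counts are 2.5% and 3.0% of the members, below those backgrounds, and the Aa vs. N count is 13.5%, above its own.

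With the replicate number as a block, which takes out what a slide shares, these counts were 45 members against 9.89% in Bio vs. N, 35 against 10.2% in Aa vs. N and 23 against 7.65% in Bio vs. Aa. No member passed the adjusted threshold in that fit either, and the smallest adjusted p of a member was 0.279, in Aa vs. N. The block takes out part of the spread that chose the members, so that their counts against all transcripts depend on that choice. Without the block the fitted differences were large but unsure. Wide errors alone carry more fitted changes past 2-fold. The counts and sizes below thus follow in part from how the members were chosen. A fold change of 2 or more was fitted in 97 members in Bio vs. N (69 higher in Bio, 28 lower), in 86 in Aa vs. N (50 higher in Aa, 36 lower) and in 66 in Bio vs. Aa (27 higher in Bio, 39 lower). Over all transcripts the shares were 6.23%, 6.91% and 4.46%. Over all 200 members without a fold limit, 120 were on the higher side in Bio vs. N, 111 in Aa vs. N and 128 in Bio vs. Aa. The median log2 fold change of Bio vs. Aa was 0.34, the other way from its counts past 2-fold. The median size of the fitted log2 fold change was 0.98, 0.91 and 0.69 in these comparisons, against 0.25, 0.21 and 0.25 over all transcripts. The 3 arrays of Bio and N did not overlap in 2 members against 12.2% of eligible transcripts. Those of Aa and N did not overlap in 24 against 16.4%, and those of Bio and Aa in 1 against 9.76%. A wide spread makes overlap more likely, so that these counts depend on the choice too.

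In the fit without the block, the 3 lowest p-values of members in Aa vs. N were those of the iron genes. With the block, 2 undescribed members named after their values were seen came below YS3/ZmTOM1 (limma, unadjusted p = 0.0008), namely GRMZM2G086410_T01 (unadjusted p = 0.0002) and GRMZM2G072820_T01 (unadjusted p = 0.0006), each with an adjusted p of 0.279. YS3/ZmTOM1 averaged 2.64 ± 0.55 in Aa and -2.10 ± 1.22 in N (SD, n = 3 arrays each), a log2 fold change of 4.74 ± 1.03 (SE; limma, unadjusted p = 0.0016, adjusted p = 0.396). AC233955.1_FGT003, annotated as ZmNAS1, had a log2 fold change of 3.98 ± 0.91 (adjusted p = 0.396), and ZmNAS2 one of 3.90 ± 0.93 (adjusted p = 0.407). In all 3 the lowest Aa array was above the highest N array. In Bio vs. N the log2 fold changes were 1.81 ± 1.03 for YS3/ZmTOM1, 2.03 ± 0.91 for ZmNAS1 and 1.48 ± 0.93 for ZmNAS2, with overlapping arrays and adjusted p values of 0.683, 0.683 and 0.684. In Bio vs. Aa they were -2.93 ± 1.03, -1.95 ± 0.91 and -2.42 ± 0.93, each with an adjusted p of 0.79. These comparisons share their arrays and are not independent of each other.

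nrt2.2 averaged 1.82 ± 1.27 in Aa and -1.41 ± 0.77 in N, a log2 fold change of 3.23 ± 1.0 without overlap (adjusted p = 0.497), and in Bio vs. N it had 2.07 ± 1.0 (adjusted p = 0.683). The peroxidase GRMZM2G138450_T01 averaged 5.48 ± 1.81 in Aa and 1.23 ± 1.02 in N, a log2 fold change of 4.25 ± 1.70 (adjusted p = 0.632). In Bio it averaged 0.95 ± 3.73, and its Bio vs. Aa log2 fold change was -4.53 ± 1.70 (adjusted p = 0.79). pht1-6 was at -3.57 ± 1.96 in Aa and -1.09 ± 0.64 in N, a log2 fold change of -2.48 ± 1.07 (adjusted p = 0.669). bx2 averaged 0.62 ± 1.61 in Aa and 2.86 ± 0.77 in N, with -2.24 ± 0.95 (adjusted p = 0.664). lhcb6 averaged 2.42 ± 1.49 in Bio and -0.10 ± 1.01 in Aa, with 2.53 ± 0.87 (adjusted p = 0.79) and no overlap.

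The groups differed in where their fitted fold changes pointed. In group 1, 65 of 69 members were on the higher side in Bio vs. N and 60 in Aa vs. N, with median log2 fold changes of 1.26 and 0.85, and 0 and 5 of them had an unadjusted p below 0.05. In group 3, all 17 were on the lower side in Bio vs. N and in Aa vs. N, with medians of -0.52 and -1.05 and no p below 0.05. Their N mean holds N replicate 2, with a median deviation of 3.07. That array helped to choose and group them, so that this direction is not independent of the choice. In group 9 all 5 were on the higher side in both comparisons with N, with medians of 1.48 and 3.90. Its Bio mean holds Bio replicate 3, with a median deviation of 2.04. In group 1 the median deviation was 1.39 on Bio replicate 3 and 1.70 on Aa replicate 3. Those arrays too helped to choose and group the members, so that these directions are not independent of the choice either. Members of a group share their arrays and their profile, so that these counts are not separate observations.

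**Figure D5:**
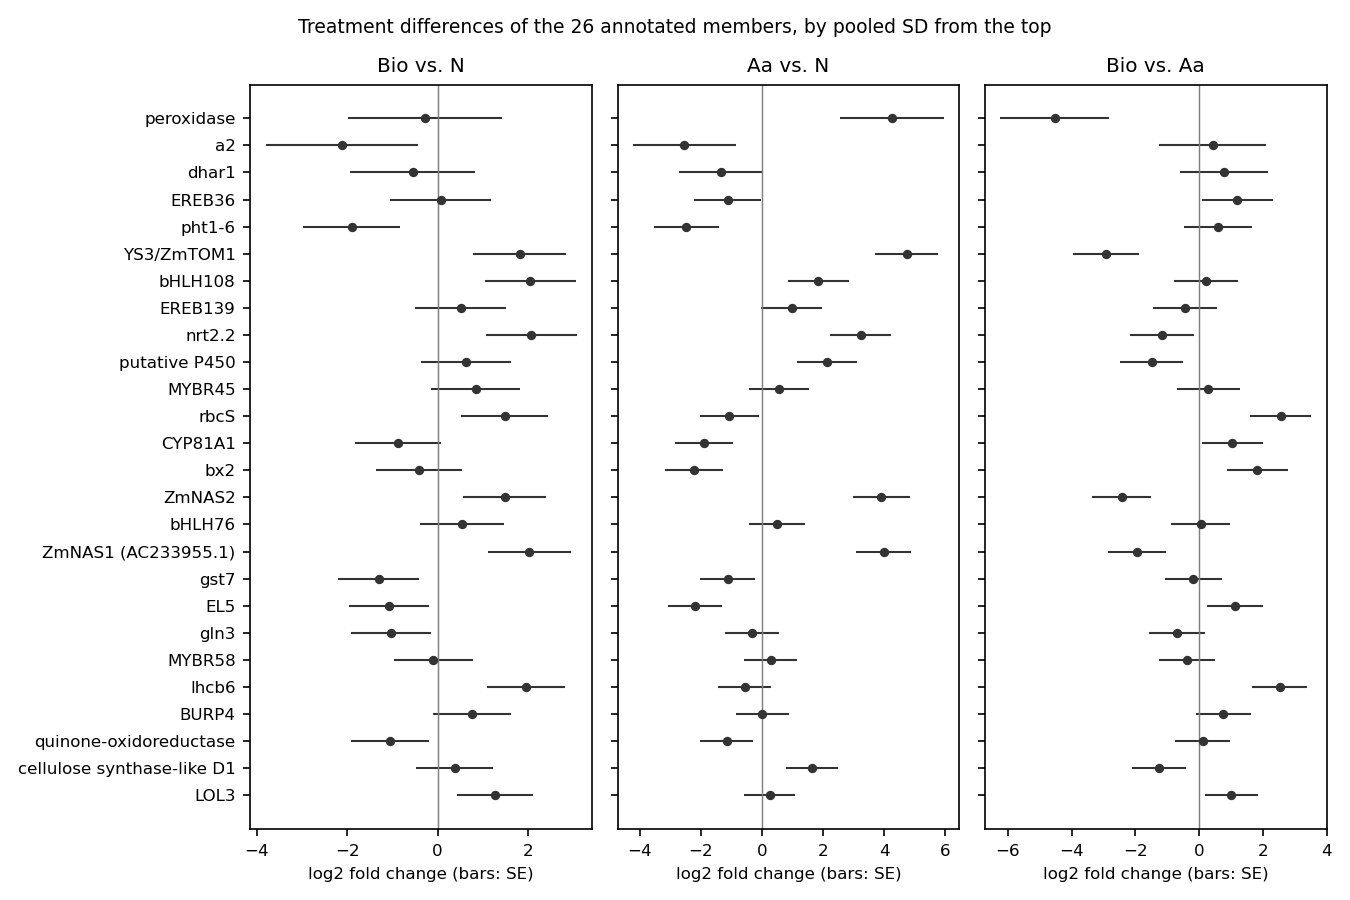
Log2 fold change with its standard error (limma, 9 arrays) of the 26 annotated members, with Bio vs. N in the left, Aa vs. N in the middle and Bio vs. Aa in the right panel, ordered by pooled SD from the largest at the top; the scales differ between panels. The largest values in Aa vs. N are those of YS3/ZmTOM1 (4.74), the peroxidase (4.25), ZmNAS1 (3.98) and ZmNAS2 (3.90), and the smallest adjusted p was 0.396.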

How the data were processed

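RNA from 9 root pools was measured on one-colour (Cy3) Agilent arrays. Per the file headers, the deposited intensity of a spot is background-subtracted and corrected for trends across the array, with Feature Extraction 10.5.1.1 named in the submitters' processing notes, and is not scaled between arrays. The authors also deposited these intensities scaled by 1 factor per array. The levels were computed from the unscaled ones. Spots with a non-uniformity or population outlier mark (5.68%) were missing in the fits, and no spot was saturated. The number of arrays limits the precision.

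Treatments were compared with limma 3.58.1 in R 4.3.3 (lmFit, eBayes, Benjamini-Hochberg over all transcripts, prior degrees of freedom 2.44). The limma fits, the choice of members, the shares and the counts of shared deviations were tested on simulated data. The p-values set a difference between treatments against the spread between the arrays of a treatment. Without the block that spread holds the pools and the slides together. It does not cover the position on the slide, which was the same for all arrays of a treatment.

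Same-numbered arrays deviated together over the eligible transcripts: the correlation of their deviations from the treatment means was 0.19 to 0.28 for replicate 1, 0.17 to 0.42 for replicate 2 and 0.36 to 0.48 for replicate 3. The numbers were thus taken to pair the arrays. These correlations are those of the main levels only. After normexp the median share between replicate numbers over all eligible transcripts was near its value without a shared pattern.

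The members, the gene lists and the grouping were chosen with earlier results of these data known, and the symbol patterns of the lists were added after values were seen. Named are the 10 members of largest pooled SD, the 25 annotated ones of largest pooled SD, those the paper names, up to 4 of each list, 3 on each side of the limit and up to 3 of each group, and others as said. Symbols come from a RefSeq gene table (Zm-B73-REFERENCE-NAM-5.0, an assembly later than that of the array) and descriptions from the study's annotation. The study's supplementary columns of fold changes and p-values between treatments were not used. Sequences were not used here.

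The alternatives were quantile normalization, normexp correction and a 75th percentile over probes well above background. Normexp had an offset of 50 and was run on median signals, since mean signals were not used here. Other alternatives were the scaled table, other filters on dim and marked spots and other limma settings. A pooled-variance t-test, the replicate number as a block and each array left out were also run.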

Additional observations from a re-analysis of the deposited data

How the results depend on the processing

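The count of 0 members past the limma threshold held under every alternative run in Bio vs. Aa and in Bio vs. N. In Aa vs. N it held except for a pooled-variance t-test without adjustment, which took in 2. The study's own t-test used permutations and a Bonferroni correction, and was not rerun. The share that the unadjusted test took in over all transcripts is not given here, so that the 2 are no result about the members. With each array left out the count was 0 to 0 in each comparison. The slide block is the replicate block, which also called 0 members in each comparison.

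The list of 200 itself depends on the processing. Of the members, 193 were found again after quantile normalization, 198 with the percentile over bright probes, 200 in the authors' scaled table and 178 by the mean range. Only 61 were found again after normexp correction, 129 when marked spots were kept, 86 when 6 arrays well above background were enough and 100 by the residual SD under the replicate block. The filters on dim and marked spots let in more candidates for the same 200 places. With each array left out, 131 (without Bio replicate 3) to 167 were found again. Normexp raised the median pooled SD over all eligible transcripts to 0.62, against 0.29, and lowered that of the members to 1.01, against 1.36. It found again 2 of the 69 members of group 1, 12 of 19 in group 2, 12 of 17 in group 3, 4 of 15 in group 4, 8 of 12 in group 5, 3 of 11 in group 6, 7 of 11 in group 7, 2 of 8 in group 8, 5 of 5 in group 9, 1 of 5 in group 10 and 5 of the other 28. In group 4 the median deviation of N replicate 1 was 1.25 after normexp, in place of -0.22. The cause was not tested.

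The median share between replicate numbers was 43.8% after normexp, against 33.2% over all eligible transcripts, and 62.5% to 76.0% with each array left out. The count of 125 members that moved the same way on the 3 arrays of a replicate number was 51 after normexp and 35 with a deviation of at least 1. The largest group of like profiles held 84 members at a mean correlation of 0.6, 67 at 0.8 and 68 after quantile normalization, alternatives chosen after seeing the data. In 728 recomputations no pooled SD of a named member moved by as much as its own size, a wide limit that the changes of over 1.5 times on leaving out 1 array also meet. Depth cannot be given for arrays, and the dimmest members are the least resolved.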
